A study of Rattus norvegicus with 8 samples.

Results

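The arms of 2 microRNA hairpins known from cartilage, miR-140 and miR-455, were followed in rat bone marrow mesenchymal stem cells (BMSCs) with and without dexamethasone. The members were all rows of the deposited table named rno-miR-140 or rno-miR-455 with an arm suffix, which gave 4 mature miRNAs of 487. BMSCs are plastic-adherent stromal cells of the marrow that can be driven towards bone, fat or cartilage, and dexamethasone is a synthetic glucocorticoid used in media for each of those fates. The series holds 4 control samples, for which the labels give no vehicle, and 4 samples kept for 48 h in 10 µM dexamethasone. Strain, age and sex of the animals, passage, and whether replicates were separate cultures are not stated in the labels used here, so p-values measure only the spread between these samples, which may be technical.

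A microRNA hairpin is cut into a duplex of a 5p and a 3p strand, and either can be loaded into Argonaute, where the seed, bases 2 to 8 of the strand, pairs with target transcripts. In mouse, Mir140 is transcribed in chondrocytes under Sox9, the master transcription factor of cartilage, and mice without it have a shortened skeleton and early cartilage loss. Mouse targets named for miR-140-5p include Adamts5, an aggrecan-cutting protease, and Hdac4, a restraint on chondrocyte hypertrophy. miR-455 is likewise enriched in developing mouse cartilage, and miR-455-3p has been tied to Smad2 and other parts of TGF-β signalling. Each hairpin lies inside a matrix- or cartilage-linked gene: in the RefSeq gene table for assembly GRCr8, Mir140 fell within Wwp2, which encodes a ubiquitin ligase, and Mir455 within Col27a1, which encodes a fibrillar collagen of cartilage. No other miRNA gene started within 10 kb of either in that table.

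The mature strands are shown because the 2 arms of a hairpin carry different seeds and hence different target sets. The arms of miR-140 changed in opposite directions, each by its own test. The difference in their ratio did not pass over 53 hairpins (limma adjusted p = 0.0821). RefSeq (GRCr8) held 3 of the 4 mature strands; miR-455-5p is named only. Capitals mark the seed, written 5′ to 3′.
rno-miR-140-5p: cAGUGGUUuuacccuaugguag
rno-miR-140-3p: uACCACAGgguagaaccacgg
rno-miR-455-3p: gCAGUCCAcgggcauauacacu
The 3 seeds differ from each other. None of the other mature strands among the 693 names in that RefSeq table shared bases 2 to 8 with any of them. A sequence was held there for 443 of the 487 deposited miRNAs, so the others, miR-455-5p included, were not compared. The strands are 22, 21 and 22 bases long.

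The hairpins show where these strands sit, with the strands listed above in capitals. Mir140 lies on the plus strand of chromosome 19 (GRCr8, 52375293 to 52375391), in a gene body, and Mir455 on the plus strand of chromosome 5 (GRCr8, 81704834 to 81704911).
Mir140: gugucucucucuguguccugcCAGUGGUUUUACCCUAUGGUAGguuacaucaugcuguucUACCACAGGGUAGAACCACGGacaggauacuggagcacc
Mir455: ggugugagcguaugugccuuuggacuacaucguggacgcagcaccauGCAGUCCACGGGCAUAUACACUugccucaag
The 5p strand of Mir140 spans bases 22 to 43 of the 99-base hairpin and the 3p strand bases 61 to 81. The miR-455-3p strand spans bases 48 to 69 of its 78-base hairpin.

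Counts per library ran from 1835256 to 2639007 in control and from 1377881 to 1521505 in dexamethasone samples, so depth and treatment cannot be told apart. The 5 mesenchymal miRNAs checked against the label (both arms of miR-199a, miR-214-3p, miR-143-3p and miR-145-5p) summed to 131532 to 137168 CPM (counts scaled to a common library total) in control and 141456 to 144286 CPM in treated libraries. Most of that sum was miR-199a-3p, with means of 97394 and 110804 CPM. The 5 did not move together: 2 were called higher and 1 lower, miR-143-3p (log2 fold change -0.30, edgeR, BH-adjusted p = 0.00525). Haematopoietic markers (4 of 4 in the table) summed to 36.4 to 46.8 and 50.4 to 67.5 CPM, epithelial markers (6 of 6) to 2.25 to 6.81 and 2.81 to 8.54 CPM, neural markers (2 of 3, without miR-124-3p) to 15.3 to 27.3 and 15.2 to 29.6 CPM, and erythroid markers (2 of 3) to at most 0.726 CPM. Of the haematopoietic markers 1 was called higher, miR-142-3p (log2 fold change 0.54, edgeR, BH-adjusted p = 0.00479), and 0 lower. Skeletal muscle markers (5 of 5) summed to 73.7 to 103 CPM in control libraries and 236 to 331 CPM with dexamethasone. Most of this was miR-206-3p, with means of 80.0 and 235 CPM. It and miR-1b (6.34 and 25.5 CPM) were called higher, while miR-1-3p, miR-133a-3p and miR-133b-3p were too low to be tested. In the table no listed marker was at 0 in all 8 libraries. Dexamethasone replicate 1 stood apart from the other treated libraries, with a chi-square per degree of freedom of 37.0 to 48.6 against each, where all other pairs within a group had 7.56 to 20.5. Without it the 4 calls held, with log2 fold changes of -0.59 for miR-455-5p, -0.80 for miR-455-3p, -0.27 for miR-140-5p and 0.38 for miR-140-3p (edgeR, BH-adjusted p = 2.40e-04, 0.00454, 0.0468 and 0.0219). The difference in the miR-140 arm ratio was then -0.63 (limma adjusted p = 0.122), which does not pass, as with all samples, and the log2 difference of the ratio of miR-140 to miR-455 was 0.58 (exact permutation p = 0.0286).

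All 4 arms passed the low-count filter and all 4 changed at a Benjamini-Hochberg (BH) adjusted p below 0.05, in a table where 46.1% of 245 tested miRNAs did. Both arms of miR-455 fell, by 1.53-fold for 5p and 1.65-fold for 3p, and miR-140-5p fell 1.20-fold. miR-140-3p, the other strand of the same hairpin, rose 1.35-fold. Of all tested miRNAs 24.9% were called higher (61) and 21.2% lower (52), and the groups' CPM did not overlap in 42.0%, as in 3 of the 4 arms, all but miR-140-3p. Upper quartile scaling shifted the median log2 fold change of all tested miRNAs by -0.15, and calls were then 41 higher and 71 lower (36.6% higher, against 54.0%). By mean count in control, the order was miR-140-5p, miR-455-5p, miR-140-3p and miR-455-3p, at ranks 67, 76, 100 and 160 of 487. After dexamethasone miR-140-3p stood above miR-455-5p, at ranks 93 and 98, with miR-140-5p at 76 and miR-455-3p at 185. The sample ranges of neighbours in the order of the 4 arms did not overlap in either group, except that those of miR-140-3p (134 to 176 CPM) and miR-455-5p (133 to 162 CPM) did after dexamethasone. Ranks of counts are not ranks of molecules, since library preparation captures some miRNAs better than others.

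**Figure D1:**
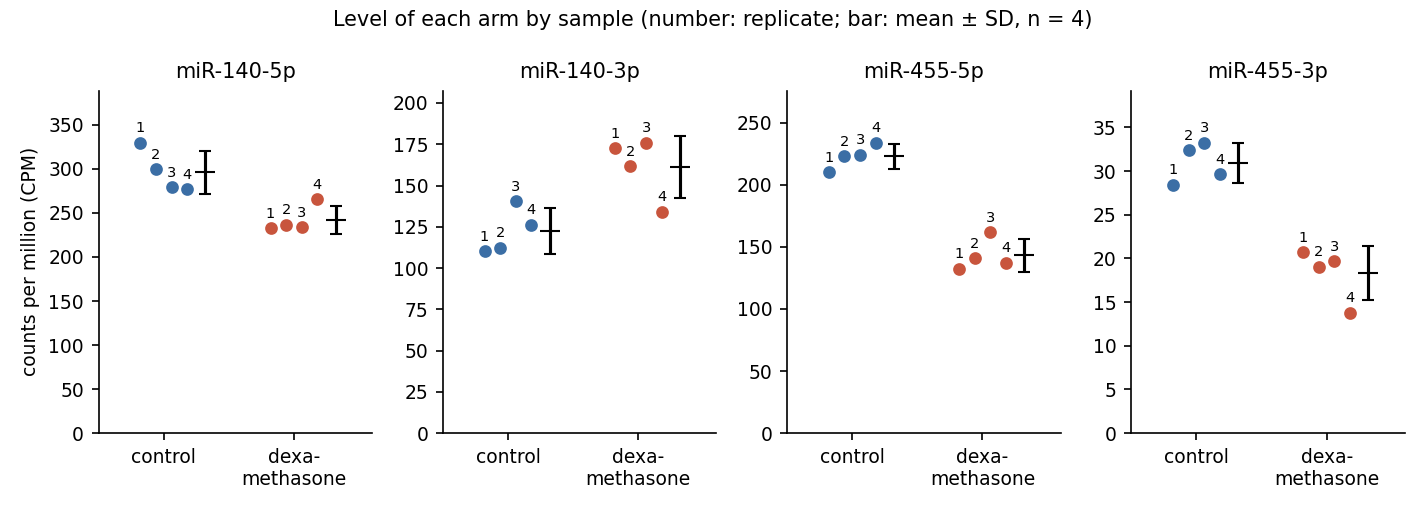
Level of each arm in CPM (vertical axis, from 0) in the 4 control and 4 dexamethasone samples; each point is a sample with its replicate number, and bars give the mean ± SD. Control and treated samples do not overlap for miR-140-5p and both arms of miR-455, while dexamethasone replicate 4 of miR-140-3p (134 CPM) lies below control replicate 3 (141 CPM).

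miR-455-5p, the more counted arm of its hairpin, stood at 210, 223, 224 and 234 CPM in replicates 1 to 4 of the control (554, 524, 411 and 520 counts). In dexamethasone replicates 1 to 4 it was at 133, 141, 162 and 137 CPM (192, 214, 230 and 189 counts). Every treated sample was lower than every control, and the highest treated sample, replicate 3, was still well under the lowest control. The mean CPM dropped from 223 ± 9.77 to 143 ± 13.0 (± SD, n = 4), which is a log2 fold change of -0.61 ± 0.09 (SE, edgeR quasi-likelihood test, adjusted p = 9.26e-05, 32nd smallest p of 245).

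miR-455-3p, the arm linked in mouse to TGF-β signalling, was the rarest of the 4. It had 28.4, 32.4, 33.2 and 29.7 CPM in replicates 1 to 4 of the control (75, 76, 61 and 66 counts) and 20.7, 19.1, 19.7 and 13.8 CPM in the same order with dexamethasone (30, 29, 28 and 19 counts). The groups did not overlap, and dexamethasone replicate 4 was the lowest sample. The mean CPM dropped from 30.9 ± 2.26 to 18.3 ± 3.09 (± SD, n = 4), a log2 fold change of -0.72 ± 0.17 (SE, edgeR, BH-adjusted p = 0.00426). With 19 to 30 counts per treated library its 95% interval, -1.09 to -0.35, was the widest of the 4 arms and spans that of miR-455-5p, -0.80 to -0.42.

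Counts of both arms of miR-455 together ran from 238 to 263 CPM in control libraries and from 151 to 182 CPM with dexamethasone, with means of 254 ± 10.7 and 161 ± 14.0 CPM (± SD, n = 4). The log2 difference of the summed level was -0.66 (two-sided exact permutation p = 0.0286, which is the lowest value 70 assignments can give). The 5p strand took 87.8 ± 0.752% of the hairpin's counts in control libraries and 88.6 ± 1.84% with dexamethasone (± SD, n = 4). The log2 ratio of 5p to 3p differed by 0.11 ± 0.16 (SE, limma adjusted p = 0.631 over 53 hairpins) and did not pass. Its 95% interval was -0.25 to 0.48, so no difference and differences within that interval all remain possible with these samples.

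miR-140-5p, the strand with Adamts5 and Hdac4 among its mouse targets, had the highest counts of the 4 arms. It was at 330, 299, 279 and 277 CPM in replicates 1 to 4 of the control (870, 703, 512 and 616 counts) and at 233, 237, 234 and 266 CPM in the same order with dexamethasone (337, 360, 332 and 366 counts). Treated replicates 1 to 3 lay within a few CPM of each other and replicate 4 stood above them, close to the 2 lowest controls but still under both. The mean CPM dropped from 296 ± 24.5 to 242 ± 15.8 (± SD, n = 4), a log2 fold change of -0.27 ± 0.09 (SE, edgeR, BH-adjusted p = 0.0286). This was the weakest of the 4 calls: it missed the threshold without control replicate 1 (-0.22, edgeR, BH-adjusted p = 0.0880), control replicate 2 (-0.27, 0.0501) or dexamethasone replicate 3 (-0.26, 0.0544), over a range of 0.0178 to 0.0880 with each replicate left out in turn.

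miR-140-3p, from the opposite side of the same stem, went the other way. Its control values were 110, 112, 141 and 126 CPM in replicates 1 to 4 (291, 264, 258 and 281 counts), and its treated values 173, 162, 176 and 134 CPM (250, 246, 250 and 185 counts). Treated replicates 1 to 3 were above every control, and treated replicate 4 was under control replicate 3, so the groups overlapped by that sample. The mean CPM rose from 122 ± 14.1 to 161 ± 18.9 (± SD, n = 4), a log2 fold change of 0.43 ± 0.12 (SE, edgeR, BH-adjusted p = 0.00918). It was 0.53 without dexamethasone replicate 4 (edgeR, BH-adjusted p = 9.49e-04), and missed the threshold with upper quartile scaling (0.28, edgeR, BH-adjusted p = 0.0779).

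For both arms of miR-140 together no difference passed. The sum was 440, 412, 420 and 403 CPM in the controls (replicates 1 to 4) and 405, 398, 410 and 400 CPM in the dexamethasone samples (replicates 1 to 4), and the groups overlapped. The mean was 419 ± 15.7 CPM in control libraries and 403 ± 5.12 CPM with dexamethasone (± SD, n = 4), a log2 difference of -0.053 that did not pass (two-sided exact permutation p = 0.0857). It passed without control replicate 4, at -0.071 (exact permutation p = 0.0286, the lowest value 35 assignments can give), and with upper quartile library sizes, at -0.18 (exact permutation p = 0.0286).

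The 5p strand held a smaller share of these counts in each treated sample than in any control. Such a separation was not particular to miR-140. In the log2 ratio of 5p to 3p the groups also did not overlap in miR-148a, miR-22, miR-324, miR-199a, miR-21, miR-30a, miR-30e, miR-322 and miR-542. The 5p strand of miR-140 had 74.9%, 72.7%, 66.5% and 68.7% of the hairpin's counts in the controls (replicates 1 to 4) and 57.4%, 59.4%, 57.0% and 66.4% in the dexamethasone samples (replicates 1 to 4). Treated replicate 4 (366 of 551 counts, exact 95% binomial interval 62.3 to 70.4%) was just under control replicate 3 (512 of 770 counts, 63.0 to 69.8%), and their intervals overlap. The other treated samples were lower than all controls by more than that. Means were 70.7 ± 3.82% in control libraries and 60.1 ± 4.36% with dexamethasone (± SD, n = 4), so the 3p share went from 29.3% to 39.9%. Intervals of this kind cover counting error only. No source used states how strands with other ends (isomiRs) were assigned, so these are shares of the counts assigned to each arm, not of all molecules of a strand, and the part of end variants in the difference was not tested.

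**Figure D2:**
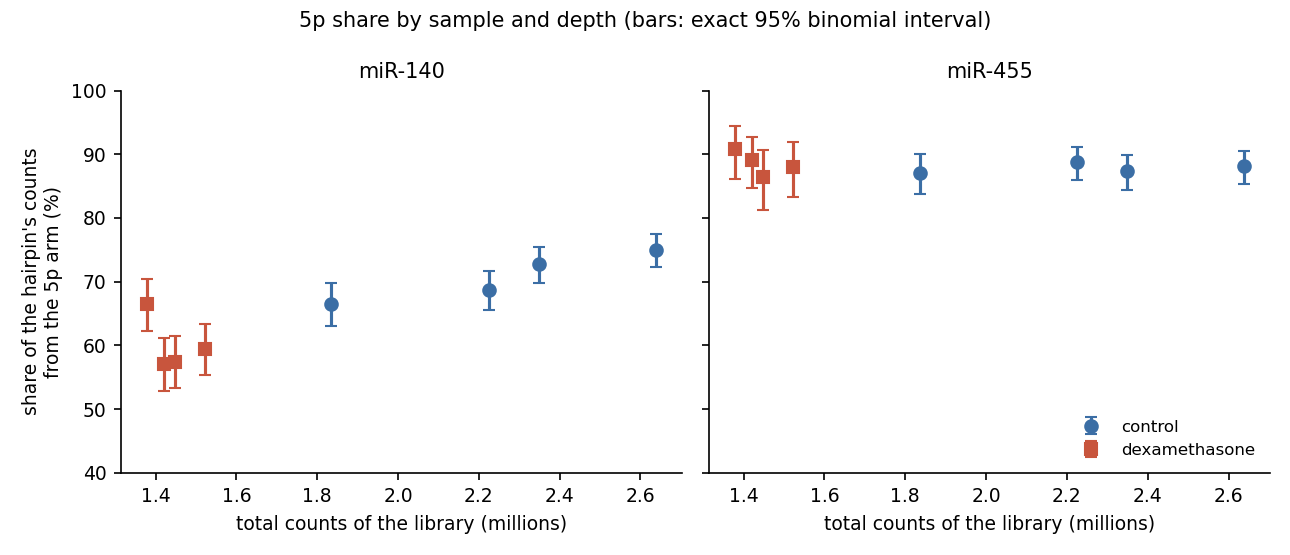
Share of each hairpin's counts that came from the 5p arm (vertical axis, %, from 40 to 100) against the library's total counts (horizontal axis), with exact 95% binomial intervals for each sample. For miR-140 the treated samples sit between 57.0% and 66.4% and the controls between 66.5% and 74.9%, and within the controls the share is higher in deeper libraries; for miR-455 all samples sit between 86.5% and 90.9%.

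The log2 ratio of miR-140-5p to miR-140-3p was 1.27 ± 0.27 in control libraries and 0.59 ± 0.27 with dexamethasone (± SD, n = 4), a difference of -0.68 ± 0.19 (SE). Over 53 hairpins it did not pass (limma adjusted p = 0.0821, 4th smallest p and 6th largest change). On its own, all 4 treated samples were lower (two-sided exact permutation p = 0.0286), a separation also seen in the other hairpins named above. The miR-140 ratio passed over all hairpins without dexamethasone replicate 4, at -0.81 (limma adjusted p = 0.0378), and its adjusted p ran from 0.0378 to 0.171 with each replicate left out. The ratio was called in 1.89% of hairpins (1 of 53, miR-148a, named after its values were seen). That number was 2 without control replicate 1 or dexamethasone replicate 2, 3 without dexamethasone replicate 3, and 5 without dexamethasone replicate 1 or 4.

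Depth differed among the controls too. From the deepest control library to the shallowest (replicates 1, 2, 4 and 3) the log2 ratio was 1.58, 1.41, 1.13 and 0.99, in the order of depth. A strict order in either direction occurred in 3 of the 53 hairpins; over 4 libraries it is a description and no test. The treated libraries were all shallower, and among them the shallowest, replicate 4, had the highest ratio, at 0.98, against 0.43, 0.55 and 0.41 in replicates 1 to 3. With all libraries thinned to 1377881 counts the difference was -0.65 (limma adjusted p = 0.0573). The part of depth in this difference was not tested beyond that.

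In 16 of the 53 hairpins both arms were called by edgeR. In 15 of them, miR-455 included, the arms moved in the same direction, and miR-140 was the remaining 1 with opposite calls (1.89% of 53). That count depends on the threshold, and arms of opposite sign were also seen in hairpins without both arms called. In miR-148a the log2 fold change was -1.26 for 5p and 0.28 for 3p (edgeR, BH-adjusted p = 1.03e-05 and 0.0781). Among further such hairpins were miR-30d (0.58 and -0.27), miR-191a (0.42 and -0.22) and miR-3559 (0.69 and -0.12), with 5p called and 3p not. Under the 19 alternative settings miR-140-5p was below 0 and miR-140-3p above 0 each time, and both calls held in 12 of them. Both arms of miR-455 were called lower under all 19.

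**Figure D3:**
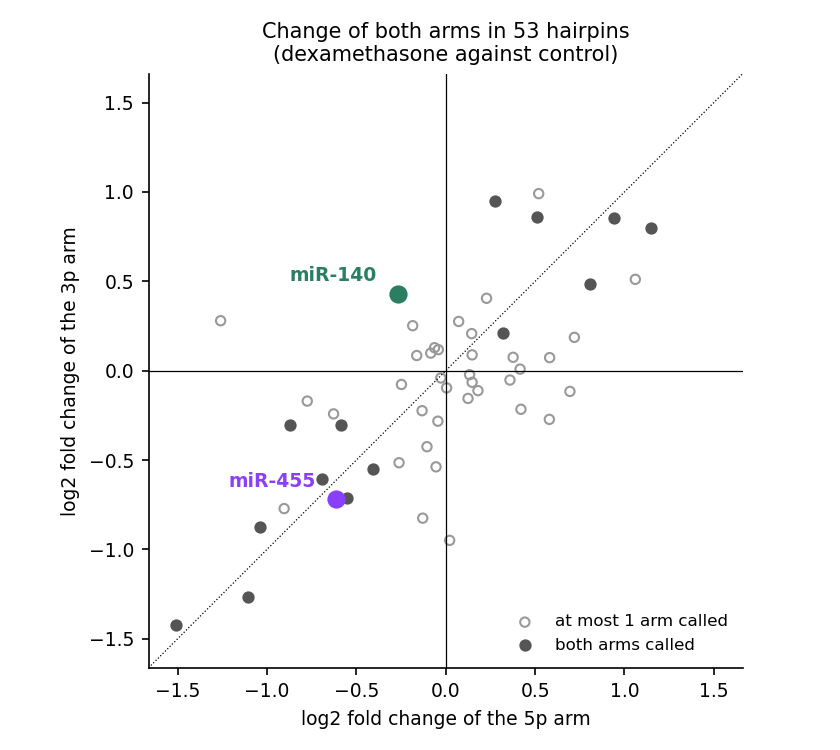
Log2 fold change of the 3p arm (vertical axis) against that of the 5p arm (horizontal axis) in the 53 hairpins with both arms tested; filled points have both arms called and the dotted line marks equal change. miR-455 sits near the line at -0.61 and -0.72, and miR-140 sits at the upper left, at -0.27 and 0.43.

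The 2 hairpins changed by different amounts. The summed counts of miR-140 were 1.85, 1.61, 1.63 and 1.53 times those of miR-455 in the controls (replicates 1 to 4) and 2.64, 2.49, 2.26 and 2.65 times in the dexamethasone samples (replicates 1 to 4). All treated samples were above all controls, and the mean ratio went from 1.65 ± 0.135 to 2.51 ± 0.185 (± SD, n = 4). The log2 difference was 0.60 (two-sided exact permutation p = 0.0286, which is the lowest value 70 assignments can give), and was 0.57 to 0.66 with each replicate left out. This ratio uses counts of the same library, so it does not depend on scaling. The log2 differences of the sums were -0.053 for miR-140 and -0.66 for miR-455, so the ratio is not separate from the fall of miR-455. Among single tested miRNAs the groups' CPM did not overlap in 42.0%.

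**Figure D4:**
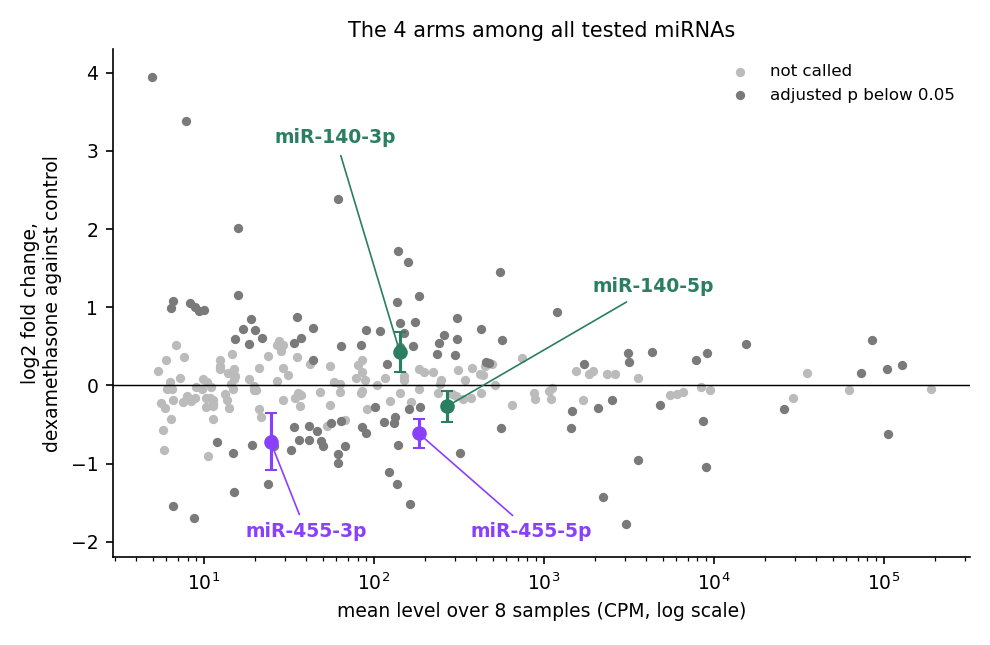
Log2 fold change after dexamethasone (vertical axis) against mean level over 8 samples (horizontal axis, CPM, log scale) for the 245 tested miRNAs; coloured points are the 4 arms with 95% intervals. The arms of miR-455 lie at -0.61 and -0.72, miR-140-5p at -0.27 and miR-140-3p at 0.43, among many miRNAs with changes of that size or larger.

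The miRNAs whose profile came closest to each arm were found from log2 CPM over the 8 samples, each miRNA set relative to its own control mean, by the root mean square difference. Since the 8 libraries and the 2 groups are shared by all miRNAs, this is a description only. A near profile has a similar change between groups by construction. The fold changes and p-values of the nearest miRNAs, here and below, are therefore no separate evidence. For miR-455-5p the nearest of 244 were miR-34c-5p, of the p53-linked miR-34 family (root mean square difference 0.09 log2 units), miR-126a-3p, an endothelial miRNA (0.10), and miR-296-3p (0.12). As the choice implies, these 3 were lower, by log2 fold changes of -0.55, -0.55 and -0.60 (edgeR, BH-adjusted p = 2.86e-05, 3.54e-05 and 0.00316). Its own partner, miR-455-3p, was 9th at 0.18.

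For miR-455-3p the nearest were miR-340-5p (0.15), miR-497-5p, which carries the miR-15 and miR-16 seed (0.16), and again miR-126a-3p (0.16), and miR-455-5p was 5th. miR-340-5p and miR-497-5p fell, their log2 fold changes being -0.76 and -0.70 (edgeR, BH-adjusted p = 1.97e-05 and 0.00644). The summed endothelial markers, miR-126a-3p and miR-126a-5p, were at 1790 to 2000.3 CPM in control libraries and 1163 to 1331 CPM with dexamethasone, with both arms called lower. Fewer cells of a type and less of a miRNA per cell cannot be told apart in these bulk samples, and the part of endothelial-marker signal in the fall of miR-455 was not tested.

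For miR-140-5p the nearest were miR-99b-5p (0.07), miR-196b-5p, from a Hox cluster (0.10), and miR-328a-3p (0.10), with log2 fold changes of -0.25, -0.18 and -0.14; the first pair fell (edgeR, BH-adjusted p = 0.00209 and 0.0268) and miR-328a-3p did not pass (0.182). For miR-140-3p they were miR-30c-5p (0.09), miR-101a-3p, of the family that targets the histone methyltransferase Ezh2 (0.11), and miR-30a-3p (0.13). These 3 rose, with log2 fold changes of 0.50, 0.54 and 0.49 (edgeR, BH-adjusted p = 0.00394, 8.04e-04 and 0.00209). Between the arms of miR-140 the root mean square difference was 0.53. miR-140-3p was 175th of 244 from miR-140-5p, where the median over all miRNAs was 0.40. miR-140-5p was 151st of 244 from miR-140-3p, where that median was 0.47. Arms whose fold changes differ in sign lie apart by construction, so this too is no separate evidence.

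Other miRNAs linked to the Sox9 axis, as regulators of Sox9 or lying downstream of it in mammals, were read for comparison. Of 16 names 11 were in the table and 7 were tested, of which 5 were called higher, 0 lower and 2 did not pass, with a median log2 fold change of 0.53 against 0.00 over all 245. Over all tested miRNAs 24.9% were called higher and 21.2% lower; the list was chosen with earlier results of these data known, so the 5 of 7 (71.4%) called higher is a description. The most counted were miR-29a-3p and miR-29b-3p, which repress collagen transcripts, miR-145-5p, reported to target Sox9, and miR-101a-3p. miR-29a-3p went from 12765 ± 868 to 18056 ± 2148 CPM, and miR-29b-3p from a mean of 3704 ± 166 to one of 4885 ± 383 CPM (± SD, n = 4, edgeR, BH-adjusted p = 1.49e-04 and 7.68e-05). miR-101a-3p rose from 198 ± 15.4 to 282 ± 27.8 CPM, and miR-145-5p stood at 302 ± 27.3 CPM without and 275 ± 21.4 CPM with dexamethasone (± SD, n = 4, edgeR, BH-adjusted p = 8.04e-04 and 0.401). Across the alternatives 5 to 7 members were higher and 0 lower.

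Among 19 miRNAs studied in chondrocyte differentiation or cartilage matrix turnover, 16 were tested, 5 were higher, 2 lower and 9 did not pass (median log2 fold change 0.17). The 7 called members are 43.8% of those tested, close to the 46.1% of all tested miRNAs, so the count shows nothing about this list. Calls also changed with the settings: with upper quartile scaling 2 were higher and 5 lower. Without dexamethasone replicate 4, 4 were lower. The most counted were miR-125b-5p, miR-199a-3p, miR-26a-5p and miR-199a-5p, with log2 fold changes of 0.26, 0.21, 0.41 and 0.32 (edgeR, BH-adjusted p = 0.00329, 3.44e-04, 3.67e-04 and 1.51e-04).

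In the authors' deposited table the log2 fold changes were -0.29 for miR-140-5p, 0.39 for miR-140-3p, -0.64 for miR-455-5p and -0.72 for miR-455-3p. The adjusted p-values there were 0.0146, 0.00527, 1.13e-06 and 0.00646 in the same order.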

How the data were processed

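Per the labels' protocols, a Qiagen miRNA kit was used for extraction and a VAHTS total RNA kit for the libraries; no source used here states how short RNAs were selected. Bowtie 1.0 and the build mRatBN7.2 are named, without roles, in the submitters' processing notes. The counter, the miRNA annotation and the treatment of strands trimmed differently at their ends (isomiRs) are not given in any source used. The authors deposited whole-number counts for 487 mature miRNAs and CPM per sample, which equalled count over column total to within 4.98e-05. A log2 fold change and p-values by a test that is not stated complete the table, per the file headers.

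edgeR 4.0.16 (R 4.3.3) tested the counts by quasi-likelihood after filterByExpr and TMM, with no term but group, a threshold of 0.05 and Benjamini-Hochberg adjustment over 245 miRNAs. The 242 others held at most 0.0332% of a library. SE is the size of the log2 fold change over the square root of F. Ratios of 5p to 3p used limma 3.58.1 on log2 CPM (prior count 1). Sums and their ratio used exact two-sided permutation over samples. A count of 0 allowed 3 counts; no member was near it. Replicate libraries differed by a chi-square of 7.56 to 48.6 per degree of freedom, so none was counted as a repeat. In simulated counts for dexamethasone against control (244 miRNAs tested) edgeR recovered 85.0% of 1.5-fold changes, 100% of 2-fold and 100% of 4-fold ones, and 3.51% of calls were false. In simulated 5p to 3p ratios (50 hairpins) 8 of 9 2-fold and 10 of 10 4-fold changes were recovered, with 1 false call. Both simulations drew every miRNA independently, with the same dispersion for all and no library that stood apart. The rates therefore describe the simulated counts and may not hold for these libraries. Changes below 1.5-fold, or below 2-fold in a ratio, were not simulated. Recovery is therefore unknown at the size of the miR-140 differences (1.20- and 1.35-fold for the arms, -0.68 log2 for their ratio).

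Named beside the 4 members were, by rule, the 3 nearest profiles of each (TMM-scaled log2 CPM, prior count 2) and the 4 most counted tested miRNAs of each list. Members and lists were chosen with earlier results of these data known. Alternatives were RLE, upper quartile and total count scaling, library sizes without the 10 most abundant miRNAs, DESeq2 1.42.0, limma voom, no filter, a filter of 10 CPM in 4 samples, thinning, a threshold of 0.1, a replicate block, a prior count of 5 for arm ratios, and each replicate left out.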

Additional observations from a re-analysis of the deposited data

Results flagged for a closer look

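For miR-140-5p, dexamethasone replicate 4 stood apart from the other treated samples at 266 CPM, against 233, 237 and 234 CPM in replicates 1 to 3. Its gap to the nearest sample was 0.879 of the group's range, above Dixon's 95% critical value for 4 samples. Of the 18 group and measure combinations examined for the 2 hairpins this was the 1 past that limit, and chance marks about 1 in 20. The fall of miR-140-5p was -0.29 without that sample (log2 fold change, edgeR adjusted p = 0.0207).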

How the results depend on the processing

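Over 19 alternatives miR-455-5p and miR-455-3p kept direction and call (log2 fold change -0.77 to -0.56 and -0.87 to -0.58), and no result for the 4 arms, the arm ratios or the sums changed direction. miR-140-5p lost its call with library sizes without the 10 most abundant miRNAs (-0.23, edgeR adjusted p = 0.0551) and with thinning (-0.22, 0.0654), and ran from -0.33 to -0.22 with each replicate left out. miR-140-3p lost its call with upper quartile scaling (0.28, 0.0779). The miR-140 arm ratio passed at a threshold of 0.1 (-0.68) and by exact permutation of that hairpin alone (-0.68, p = 0.0286), and ran from -0.81 to -0.58 with each replicate left out. Hairpins with a changed ratio numbered 3 with thinning, 4 at a threshold of 0.1 and 1 to 5 with each replicate left out. The summed miR-140 passed with upper quartile library sizes (-0.18) and ran from -0.071 to -0.029 with each replicate left out. In the chondrogenesis-linked list upper quartile scaling gave 2 higher and 5 lower, the 10 CPM filter 4 lower and the 0.1 threshold 5 lower, with 2 to 4 lower when each replicate was left out.

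Pairing by replicate number was not seen: same-numbered libraries' deviations correlated at -0.03, -0.10, 0.08 and -0.21, and not every sample correlated best with its own number. These deviations are centred within groups of 4 and the labels used here do not state pairing, so the correlations cannot settle it. With a replicate block miR-140-5p was at -0.26 (edgeR adjusted p = 0.0579), and 52 miRNAs were higher and 45 lower. In paired differences the summed miR-455 (-0.66) and the ratio of miR-140 to miR-455 (0.60) had an exact sign-flip p = 0.125, the smallest that 4 pairs allow. All treated libraries were shallower, and miR-455-3p rested on 19 to 30 counts in each.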
